A study of Mus musculus with 6 samples.

Results

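The simple and basal epithelial keratins are 8 genes, Krt5, Krt7, Krt8, Krt14, Krt15, Krt17, Krt18 and Krt19, chosen by name for the keratins of single-layered epithelium and of the basal layer of skin. They were represented by 9 of the 45281 probes of an Illumina bead array, 2 for Krt8 and 1 for each other gene. A probe counted as detected on an array at a detection p-value under 0.01, and as expressed when detected on at least 3 of the 6 arrays. By that rule 5 of the 8 genes were expressed (Krt5, Krt7, Krt8, Krt14 and Krt18), among 9190 expressed genes in all.

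Head ectoderm of mouse embryos at embryonic day 9.5, from the region of the lens placode, was profiled in 3 wild-type and 3 Pax6-/- arrays on a mixed FVB and 129 background. Wild-type tissue carries the label lens placode and Pax6-/- tissue the label surface ectoderm, so the name of the region differs together with the genotype, and the 2 cannot be told apart. Pax6 is the paired-box transcription factor required for lens formation. The mutant allele is not described in the sources used here. Ectoderm was cut from frozen sections by laser, and RNA of 3 embryos was pooled for each genotype before triplicate amplification. The p-values and intervals below therefore compare 2 pools, measure the spread of amplification and array, and overstate the certainty about embryos.

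Keratins form the intermediate filaments of epithelial cells, and each filament subunit pairs 1 acidic type I protein with 1 basic type II protein. Krt8 (type II) and Krt18 (type I) are the first pair made in the embryo and mark simple epithelium, with Krt7 (type II) and Krt19 (type I) as further simple-epithelial members. Krt5 (type II) and Krt14 (type I) are the pair of the basal layer of epidermis, where Krt15 (type I) is also made, and Krt17 (type I) belongs to early epidermis, hair follicles and wounded skin. Surface ectoderm of the head gives rise both to lens placode and to epidermis.

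The arrays of a genotype resembled each other more than those of the other genotype (correlation of log2 values over genes 0.947 to 0.954 within and 0.925 to 0.936 between genotypes, genes not being independent replicates). Between 16242 and 17735 probes were detected per array. Pax6 was at a log2 intensity of 11.30, 11.06 and 10.93 on the wild-type arrays and 10.01, 10.14 and 10.23 on the Pax6-/- arrays, and was lower in the latter by limma (-0.97, SE 0.13, adjusted p = 0.00237, and 0.0553 on slide 1 alone). Transcript was still present, and the position of the probe relative to the mutation is not given, so it does not check the genotype. The epithelial markers Krt8, Krt18, Epcam and Cdh1 were each detected, with a normalised intensity, summed over their expressed probes, of 11669 to 12276 in wild type and 10272 to 11105 in Pax6-/- tissue. Of these 4, limma called 0, with 2 at an unadjusted p under 0.05, both lower in Pax6-/- tissue without overlap of the arrays. They were Cdh1 (a log2 change of -0.22, adjusted p = 0.0858) and Epcam (-0.33, adjusted p = 0.208). Of all 9190 tested genes, 3.28% were called and 22.8% had no overlap, and an unadjusted limma p of 0.0486 ranked 1530. The arrays lay on 2 slides, slide 1 with 4 arrays and slide 2 with 1 array of each genotype.

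Krt14, the type I keratin of basal epidermis, rose in Pax6-/- tissue and was the 1 member that passed the test. Its bead signal before any correction was 182, 172 and 163 on wild-type arrays 1, 2 and 3, and 516, 435 and 469 on Pax6-/- arrays 1, 2 and 3. The 3 Pax6-/- arrays all lay far above the 3 wild-type arrays, and the groups did not overlap. In wild type the signal stood at the edge of detection: detection p-values were 0.00534, 0.00321 and 0.0438, so that wild-type array 3 counted as not detected. On every Pax6-/- array the detection p-value was listed as 0.

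After background correction and quantile normalisation, Krt14 had a log2 intensity of 5.70, 5.95 and 5.32 in wild type (mean 5.66 ± 0.32, SD, n = 3) and 8.63, 8.37 and 8.39 in Pax6-/- tissue (mean 8.46 ± 0.14, SD, n = 3). The log2 change, Pax6-/- minus wild type, was 2.80 (SE 0.30, 95% interval 2.14 to 3.46, limma adjusted p = 0.000704 over all 9190 genes), which is 6.98-fold higher. Of these genes 3.28% were called at an adjusted p under 0.05 (139 genes or 1.51% higher, 162 or 1.76% lower). A limma p of 0.0486 before adjustment ranked 1530 of the 9190 genes, the scale for counts at an unadjusted p under 0.05. Only Anxa2, with 2.87, had a higher change than Krt14 in this setting. The rank depended on the processing. Without background correction Anxa2 (2.25) and Cldn11 (1.52) both stood above Krt14 (1.45). In the authors' normalised table Gm7361 (3.34) stood above Krt14 (3.24), and Anxa2 (2.97) below it. Genotypes were fully separated over the arrays, with no shared range, for 22.8% of all tested genes and for 1 of the 5 expressed keratins.

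The call held on slide 1 alone (2.87, SE 0.39, adjusted p = 0.0183), the difference between the 2 arrays of slide 2 was 2.68 with no test, and blocking on the slide gave an adjusted p of 0.00132. The fold was 2.74 without background correction, 4.56 with an offset of 50, and 9.48 in the authors' normalised table, which also differs in normalisation. The cause of these differences was not tested. The Krt14 probe was read on 40 to 52 beads per array, with a bead standard error of 2.50% to 3.56% of the signal.

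**Figure D1:**
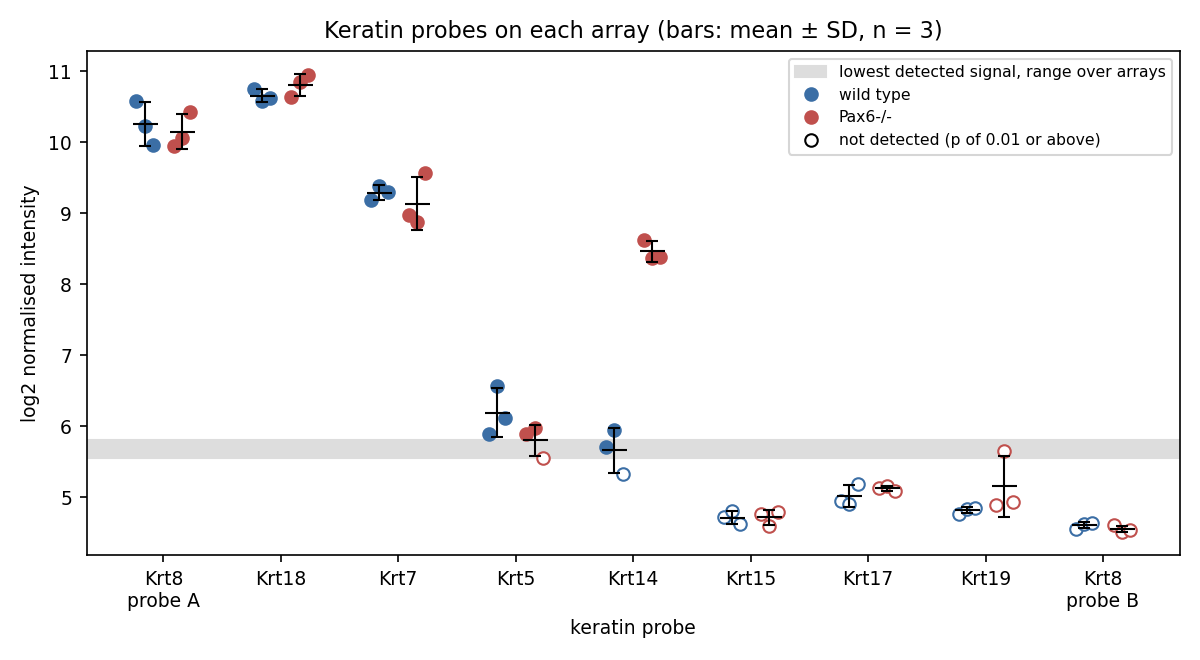
Log2 normalised intensity of the 9 keratin probes on each of 6 arrays, with the mean and SD of 3 arrays per genotype; open circles were not detected, and the grey band is the range over arrays of the lowest detected signal (5.55 to 5.81). Krt14 lies around the band in wild type (5.32 to 5.95) and between 8.37 and 8.63 in Pax6-/- tissue, while Krt8 (probe A, the expressed one), Krt18 and Krt7 overlap between genotypes, and Krt15, Krt17, Krt19 and the other Krt8 probe (probe B) are not detected.

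Krt5, the type II partner of Krt14, did not pass the test. Its log2 intensity was 5.89, 6.56 and 6.12 in wild type and 5.89, 5.97 and 5.55 in Pax6-/- tissue, and Pax6-/- array 3 was not detected (detection p-value 0.0192). The groups overlapped and all 6 values lay near the limit of detection. The log2 change was -0.39 (SE 0.34, adjusted p = 0.618), with a 95% interval of -1.13 to 0.36. A rise of the size seen for Krt14 lies outside it for the signal of this 1 probe in these 2 pools. A probe so near the limit of detection may miss a change of its transcript, so such a rise of Krt5 is not excluded. The log2 difference Krt14 minus Krt5 was -0.19, -0.61 and -0.79 in wild type and 2.74, 2.40 and 2.83 in Pax6-/- tissue. It moved by 3.19 between the genotypes (exact two-sided permutation test over arrays, p = 0.1, the smallest that 3 against 3 arrays can give, and 0.2 adjusted over the 2 pairs tested). That shift was 1.59 without background correction.

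The simple-epithelial pair Krt8 and Krt18 was detected on all arrays in both genotypes and did not pass the test. Krt8 had a log2 intensity of 10.59, 10.23 and 9.96 in wild type and 9.95, 10.07 and 10.43 in Pax6-/- tissue, with the 2 groups covering nearly the same range. Its log2 change was -0.11 (SE 0.18, 95% interval -0.51 to 0.29, adjusted p = 0.821). Krt18 had 10.76, 10.59 and 10.63 in wild type and 10.64, 10.85 and 10.95 in Pax6-/- tissue, again overlapping. Its log2 change was 0.15 (SE 0.12, 95% interval -0.11 to 0.41, adjusted p = 0.556), and -0.01 with median scaling. Between the 2 pools, the intervals leave room for modest changes of either signal but not for a doubling or halving. They hold the spread of amplification and array only, so they do not bound the change between embryos. Krt18 minus Krt8 moved by 0.26 on the log2 scale (exact two-sided permutation test, p = 0.2, also after adjustment). Whether the shifts of the 2 pairs differ was not tested.

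Krt7, the type II keratin of ducts and other simple epithelia, was also detected on all arrays. Its log2 intensity was 9.18, 9.39 and 9.30 in wild type and 8.97, 8.88 and 9.57 in Pax6-/- tissue. Pax6-/- array 3 was the highest of the 6 and the other 2 Pax6-/- arrays were the lowest, so the spread was wider in Pax6-/- tissue (SD 0.37 against 0.10). The log2 change was -0.15 (SE 0.20, 95% interval -0.60 to 0.30, adjusted p = 0.769), and it was -0.37 without Pax6-/- array 3.

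**Figure D2:**
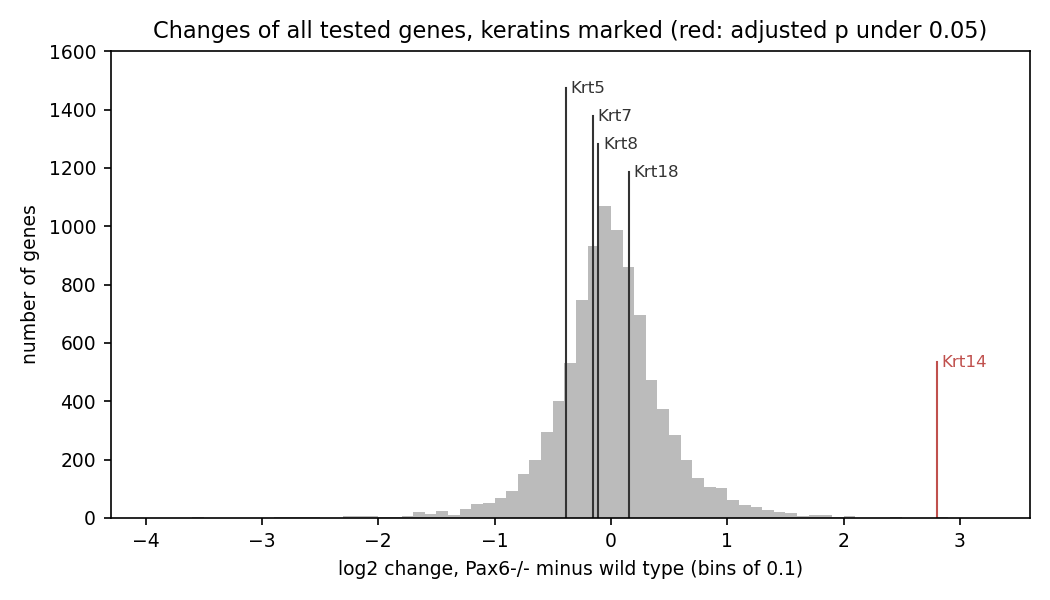
Number of tested genes by log2 change, Pax6-/- minus wild type, in bins of 0.1, with the 5 expressed keratins marked by vertical lines whose height has no meaning. Krt5, Krt7, Krt8 and Krt18 sit in the central peak (-0.39 to 0.15) and Krt14 at 2.80 in the far right tail.

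In counts, limma called 1 of the 5 expressed keratins higher and 0 lower in Pax6-/- tissue, and at an unadjusted p under 0.05 the counts were also 1 and 0. Their median log2 change was -0.11, against -0.01 for all tested genes. Tested probe by probe, the 5 expressed keratin probes gave the same counts, with an adjusted p of 0.000702 for Krt14, where 2.78% of 14535 probes were called.

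Krt15, Krt17 and Krt19 were not detected on any array. Raw signals were 127 to 153 for Krt15, 135 to 166 for Krt17 and 132 to 176 for Krt19, with detection p-values of 0.376 to 0.768, 0.0769 to 0.234 and 0.015 to 0.436. The highest Krt19 signal, on Pax6-/- array 2, came closest to detection and the other 5 Krt19 values lay between 132 and 160. When all probes were tested without the detection filter (19057 genes), the log2 changes were 0.00 (SE 0.09) for Krt15, 0.11 (SE 0.16) for Krt17 and 0.34 (SE 0.20) for Krt19, with adjusted p of 0.583 to 0.991. These probes were not well above background in either genotype, and a transcript below the detection limit is not shown to be absent. The second Krt8 probe was not detected either (detection p-values 0.671 to 0.904), although the first had a raw signal of 1110 to 1748, so an undetected probe did not mean an unexpressed gene here.

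Krt14 lies in the type I keratin cluster of chromosome 11, and Krt5, Krt7, Krt8 and Krt18 in the type II cluster of chromosome 15, where the type I gene Krt18 stands next to Krt8. In gene order (RefSeq, GRCm38.p6, protein-coding genes) the 3 genes on 1 side of Krt14 are Krt15, Krt19 and Krt9, and the 3 on the other are Krt16, Krt17 and Krt42. Of these 6 neighbours only Krt16 was expressed, and it did not pass the test (-0.20, SE 0.37, limma adjusted p = 0.838). It was detected on 2 wild-type arrays and 1 Pax6-/- array, with log2 values of 5.05 to 5.83, near the limit of detection. Such a probe may miss a change of its transcript. Krt16 and Krt17 are close relatives of Krt14. Probe sequences were not used here, so cross-hybridisation among the 3 genes was not tested.

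The start-site windows of the 2 pairs, Krt14 with Krt5 and Krt8 with Krt18, run from 250 bases before to 50 after a RefSeq transcript start (GRCm38.p6). Such windows were available for 5 of the 8 genes, and that of Krt7 is not shown. Capitals mark matches on either strand to a TATA-like motif (ATAAANG), an AP-2 motif (GCCNNNGGC) or an Sp and KLF motif (GGGCGG), and the 2 TATA-like matches in Krt8 overlap each other. The Krt14 window belongs to a start 1480 bases inside the annotated gene, not to its outermost 5′ end. It cannot be set against the other windows shown, whose starts lie at the annotated 5′ end.
Krt14, chr11:100205981-100206280, minus strand: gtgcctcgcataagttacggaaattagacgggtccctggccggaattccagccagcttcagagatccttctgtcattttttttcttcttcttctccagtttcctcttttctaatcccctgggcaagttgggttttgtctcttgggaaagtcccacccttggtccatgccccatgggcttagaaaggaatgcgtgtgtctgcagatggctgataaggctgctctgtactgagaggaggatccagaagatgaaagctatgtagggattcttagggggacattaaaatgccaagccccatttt
Krt5, chr15:101712856-101713155, minus strand: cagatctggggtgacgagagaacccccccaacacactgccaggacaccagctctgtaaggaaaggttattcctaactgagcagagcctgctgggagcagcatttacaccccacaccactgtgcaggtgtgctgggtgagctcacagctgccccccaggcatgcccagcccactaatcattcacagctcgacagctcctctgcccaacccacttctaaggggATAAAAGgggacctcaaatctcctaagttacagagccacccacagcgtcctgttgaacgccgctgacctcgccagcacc
Krt8, chr15:102004293-102004592, minus strand: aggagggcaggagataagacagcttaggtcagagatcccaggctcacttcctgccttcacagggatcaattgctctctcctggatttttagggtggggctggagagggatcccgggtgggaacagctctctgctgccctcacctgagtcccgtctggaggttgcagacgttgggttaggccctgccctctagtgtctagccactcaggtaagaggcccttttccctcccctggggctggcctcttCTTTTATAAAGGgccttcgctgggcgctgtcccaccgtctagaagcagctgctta
Krt18, chr15:102027966-102028265, plus strand: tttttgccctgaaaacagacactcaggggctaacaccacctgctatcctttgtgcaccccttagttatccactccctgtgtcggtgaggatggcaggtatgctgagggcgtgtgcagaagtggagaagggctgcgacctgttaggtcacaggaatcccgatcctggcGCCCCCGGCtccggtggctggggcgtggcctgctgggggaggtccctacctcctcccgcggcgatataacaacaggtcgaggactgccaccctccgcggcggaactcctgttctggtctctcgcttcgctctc

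The Krt5 window held 1 TATA-like match, beginning 29 bases before the start, the Krt8 window 2 TATA-like matches on opposite strands at the start itself, and the Krt18 window 1 AP-2 match. No match to the 3 motifs was found in the Krt14 window, which is not at the outermost 5′ end of its gene. The Krt7 window, not shown, held matches to all 3 motifs. Over all 32851 windows of that length, 13% held the TATA-like, 16.6% the AP-2 and 35.7% the Sp and KLF motif. The motifs were chosen after the windows had been read. A match is a description of letters only, and no match says nothing of a factor.

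Most other keratins gave little signal. Of 46 further keratin genes, 40 were on the array, and 36 of these were detected on no array, among them Krt1, Krt6a, Krt6b, Krt13 and Krt4. Only 3 were expressed, and limma called 0 of them, with 0 at an unadjusted p under 0.05. Krt10, a type I keratin known from suprabasal epidermis, had a log2 change of -0.37 (SE 0.23), Krt16 of -0.20 (SE 0.37) and Krt90 of 0.20 (SE 0.42). Krt10 was detected on all arrays, at a mean log2 intensity of 9.26 in wild type and 8.88 in Pax6-/- tissue. Its usual partner Krt1 was not detected. Among 9 expressed genes of other intermediate filaments, 1 rose and 0 fell, against 3.28% of all genes called in either direction. At an unadjusted p under 0.05 there were 4, 3 higher and 1 lower, where a limma p of 0.0486 ranked 1530 of 9190 genes. The called gene was the nuclear lamin Lmnb1 (0.51, SE 0.08, limma adjusted p = 0.0044). The call of Lmnb1 was lost in 5 of 12 alternatives of processing or design, median scaling among them, and a second Lmnb1 probe stood at -0.08 (SE 0.30).

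Desmosomes anchor keratin filaments at cell junctions. Of 7 expressed desmosome and cornified-plaque genes 1 rose, 1 fell and 5 did not pass, against 1.51% of all genes called higher and 1.76% lower. Their median log2 change was 0.23, against -0.01 for all tested genes, and 4 stood at an unadjusted p under 0.05 (3 higher, 1 lower). On that scale a limma p of 0.0486 ranked 1530 of 9190 genes. Perp, a tetraspan desmosomal protein and target of p63, rose from 7.02, 7.66 and 7.70 in wild type to 8.67, 8.66 and 8.84 in Pax6-/- tissue (1.26, SE 0.25, adjusted p = 0.021). Dsg2, the desmoglein of simple epithelium, fell from 9.34, 8.58 and 8.33 to 7.21, 6.88 and 7.78 (-1.46, SE 0.33, adjusted p = 0.0354). The groups did not overlap for either gene. The call of Perp was lost without wild-type array 1 or without any 1 of the 3 Pax6-/- arrays, and in 2 of the 12 other alternatives (adjusted p up to 0.138). Dsg2 missed the threshold when array 1 or 2 of either genotype was left out, and in 6 of the 12 others (up to 0.192). Dimmer Dsg2 probes stood at -0.83, -0.69 and -0.12 (adjusted p 0.365 to 0.93). The desmogleins and desmocollins of stratified epidermis, Dsg1a, Dsg1b, Dsg3, Dsc1 and Dsc3, were not detected on any array. Jup, neither a desmoglein nor a desmocollin, was the only other gene of this list on the array that went undetected throughout.

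Hemidesmosomes tie the keratins of basal cells to the basement membrane. Of all tested genes 3.28% were called, and an unadjusted limma p of 0.0486 ranked 1530 of 9190. Of 5 expressed hemidesmosome genes limma called 0, with 2 at an unadjusted p under 0.05 (1 higher, 1 lower). The brightest were the cytolinker Plec (-0.53, SE 0.13, adjusted p = 0.0599), with dimmer probes at 0.07 and 0.47, and the integrin subunit Itga3 (-0.16, SE 0.28, adjusted p = 0.827). Itga6, the integrin subunit of basal cells, was named after its values were seen and had a log2 change of 1.36 (SE 0.43, adjusted p = 0.127), and a second probe stood at 1.08. Of this group only Plec, Itga3 and Itga6 were followed through the alternatives, and 2 alternatives brought a call. Plec was called with median scaling (-0.69, limma adjusted p = 0.021). Itga6 was called with the mean of the kept probes (1.22, limma adjusted p = 0.0422), where Plec stood near 0 (0.0026).

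Transcription factors and other regulators of keratin genes included 2 that rose and 0 that fell, of 10 expressed (4 at an unadjusted p under 0.05, 2 higher and 2 lower), against 1.51% of all genes called higher and 1.76% lower. Trp63 encodes p63, which sets up stratified epithelium and acts on the Krt5 and Krt14 genes. It was at 8.75, 8.96 and 9.18 in wild type and 9.86, 9.70 and 9.64 in Pax6-/- tissue, with no overlap (0.77, SE 0.17, adjusted p = 0.0339). The Trp63 call was lost without any 1 array other than wild-type array 3, and in 6 of the 12 other alternatives (adjusted p up to 0.261). Tfap2b, an AP-2 factor of head ectoderm and neural crest, was at 10.75, 10.49 and 10.52 in wild type and 11.34, 11.23 and 11.42 in Pax6-/- tissue (0.75, SE 0.11, adjusted p = 0.0044), and 5 further probes stood at 0.86 to 1.11. That call was lost on slide 1 alone and without an intensity trend (adjusted p up to 0.106). Its relative Tfap2a had -0.49 (SE 0.21, adjusted p = 0.264) and Tfap2c -0.08 (SE 0.07, adjusted p = 0.644), both named after their values were seen. Of 8 expressed keratin-binding and turnover genes, limma called 0, with 2 at an unadjusted p under 0.05 (1 higher, 1 lower). Over all 9190 genes an unadjusted limma p of 0.0486 ranked 1530.

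**Figure D3:**
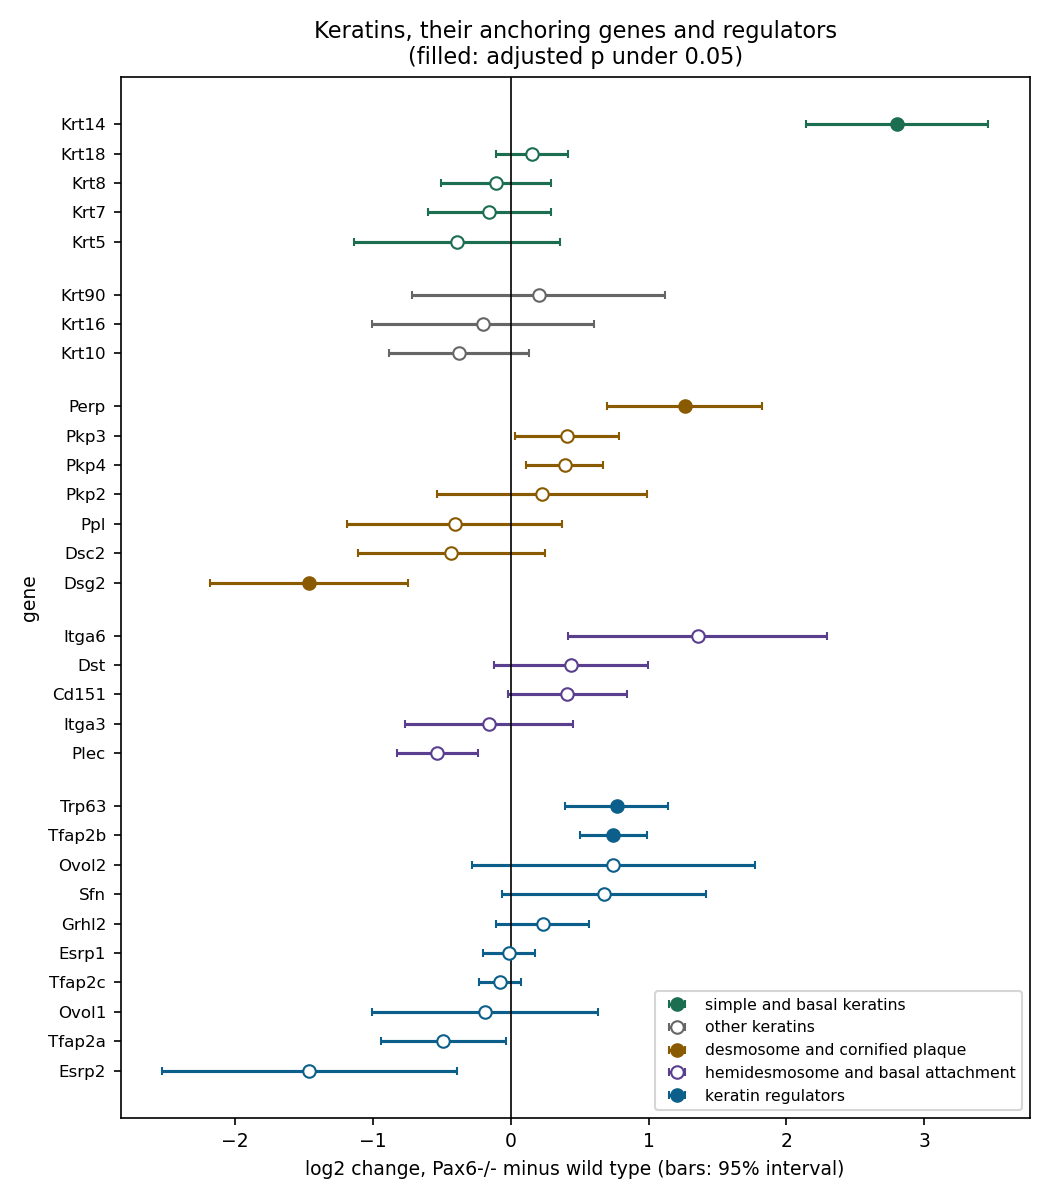
Log2 change, Pax6-/- minus wild type, with its 95% interval, for every expressed gene of 5 groups; filled points passed an adjusted p under 0.05 over all 9190 genes. Among the keratins Krt14 alone is filled, Perp (1.26) and Dsg2 (-1.46) stand on opposite sides of 0 among the desmosome genes, no hemidesmosome gene is filled, and Trp63 (0.77) and Tfap2b (0.75) are filled among the regulators.

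The genes whose pattern over the 6 arrays was nearest to that of Krt14 were found by the root mean square difference of log2 values after subtracting each gene's mean. They were the predicted genes Gm7361 (0.27) and Gm1979 (0.36), the membrane-binding annexin gene Anxa2 (0.38) and the tight-junction gene Cldn11 (0.39). These 4 were chosen for their nearness to Krt14, so their levels are given as a description with no test. Gm7361 and Gm1979 were not detected on any wild-type array and passed the detection filter through the Pax6-/- arrays alone. Anxa2 was at 7.54, 8.40 and 6.90 in wild type and 10.44, 10.94 and 10.05 in Pax6-/- tissue, and Cldn11 at a mean of 7.39 ± 0.36 and 9.48 ± 0.08 (SD, n = 3 each). The other expressed keratins ranked far down that list, Krt18 at 2623, Krt8 at 5266, Krt7 at 5856 and Krt5 at 7331 of the 9189 other genes, at distances of 1.35 to 1.61.

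**Figure D4:**
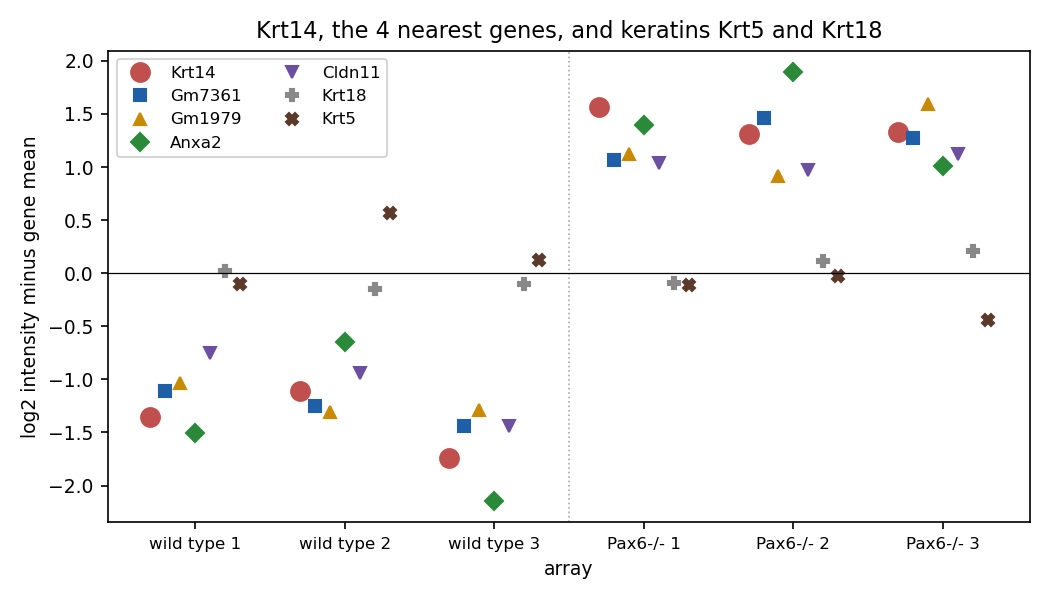
Log2 intensity minus the gene's own mean on each of 6 arrays, for Krt14, its 4 nearest genes and the keratins Krt5 and Krt18. The 4 nearest genes were chosen for following Krt14, so the step they share with it comes from that choice, while Krt18 and Krt5 have overlapping values in the 2 genotypes.

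Markers of the lens placode, which is the wild-type label, and of some other cell types also moved between the pools. Their part in the Krt14 result was not tested. Of all tested genes 1.51% were called higher and 1.76% lower, and an unadjusted limma p of 0.0486 ranked 1530 of 9190. Lens placode genes fell in 6 of 8 cases and rose in 0 (7 of 8 at an unadjusted p under 0.05, all lower), with a summed normalised intensity of 11218 to 11463 in wild type and 3031 to 3418 in Pax6-/- tissue, and Foxe3, Cryaa and Sox1 were not detected on any array. Erythroid genes rose in 3 of 4 cases, and all 4 were higher at an unadjusted p under 0.05 (sum 2839 to 3123 and 5803 to 6471). Hbb-b2, Gata1 and Epor were not detected on any array. Mesenchyme genes rose in 3 and fell in 1 of 11, with 7 higher and 1 lower at an unadjusted p under 0.05 (sum 6119 to 6551 and 8677 to 9595), and with Col1a1 and Sox10 not detected on any array. Optic vesicle and neural tube genes rose in 1 of 6, with 4 higher and 0 lower at an unadjusted p under 0.05 and all 6 changes above 0 (sum 1116 to 1398 and 1629 to 2248), with Sox3 and Zic2 not detected. Of 4 expressed periderm genes limma called 0, with 0 at an unadjusted p under 0.05, their sums overlapped (1959 to 2283 and 1941 to 2072), and Krt6a, Krt4 and Krt13 were not detected. Of 2 expressed endothelial genes limma called 0, with 0 at an unadjusted p under 0.05, their sums overlapped (126 to 333 and 180 to 338), and Pecam1, Cdh5, Kdr, Tek and Tie1 were not detected. None of 8 macrophage genes was expressed, and Ptprc, Adgre1, Lyz2 and C1qa were among 6 detected on no array. In pooled tissue, more cells that make Krt14 and more Krt14 transcript per cell cannot be told apart.

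**Figure D5:**
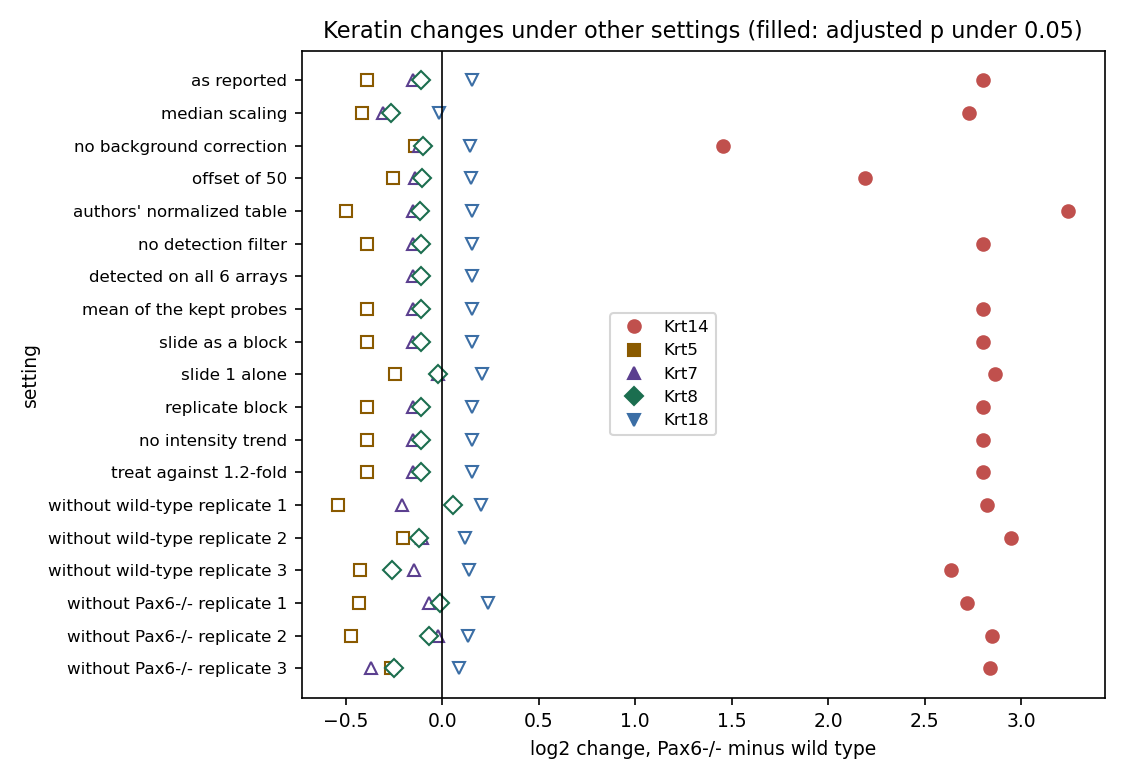
Log2 change of the 5 expressed keratins, Pax6-/- minus wild type, under the reported setting and 18 alternatives (12 of processing or design, 6 leaving out 1 array); filled symbols passed an adjusted p under 0.05, and Krt14 and Krt5 have no point where detection on all 6 arrays was required. Krt14 stays filled at 1.45 to 3.24 and the other 4 genes stay unfilled between -0.54 and 0.24.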

How the data were processed

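RNA was measured on 6 Illumina bead arrays, 3 per genotype, grouped by title. The authors deposited, per the file headers, the mean intensity of the beads of each probe (linear, not normalised), with its standard error, a detection p-value and a bead count. GenomeStudio is named in the submitters' processing notes, without a version. A second deposited intensity table held values that the authors had background-subtracted and normalised by an unstated method. It is linear (25.1% to 25.2% below 0, column medians 15.49 to 15.51), each column ranked the probes like its own array, and it served as an alternative.

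A platform table gave 34885 probes 1 gene symbol, 18 several and 10378 none, and only the first were tested. Entrez identifiers matched RefSeq for 34807. The background was corrected in limma 3.58.1 (R 4.3.3) by nec (normexp from the detection p-values, offset 16), arrays were quantile-normalised and log2-transformed, and probes detected (p-value under 0.01) on at least 3 arrays were kept, each gene being represented by its brightest. Genotypes were compared by limma with an intensity trend, with Benjamini-Hochberg adjustment over 9190 genes and two-sided tests. The number of arrays limits the precision. Same-numbered arrays did not deviate together (correlations -0.03, -0.02 and -0.00), so the numbers were not used as pairs. The fit was tested on simulated data.

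The 8 keratins and the gene lists were chosen with earlier results of these data known. Named genes are all members, every other expressed keratin, up to 3 called genes per direction from each keratin-related list (or, for the desmosome, hemidesmosome and regulator lists only, the 2 brightest where none was called), Pax6 and the 4 genes nearest to Krt14. Others are marked.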

Additional observations from a re-analysis of the deposited data

How the results depend on the processing

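Krt14 was called in all 17 alternatives that tested it, with adjusted p from 0.000508 to 0.0183 (the latter on slide 1 alone) and log2 changes from 1.45 to 3.24, and from 2.64 to 2.95 with 1 array left out. Where detection on all 6 arrays was required, Krt14 and Krt5 were not tested, which left 0 keratin genes or probes called. With any 1 array left out, 1 keratin was called higher and 0 lower. None of the other 4 keratins was called under any alternative, and the sign of their changes turned for Krt8 without wild-type array 1 (0.06) and for Krt18 with median scaling (-0.01). The replicate block, fitted although the numbers did not pair the arrays, left Krt14 at an adjusted p of 0.00465 and gave 81 genes higher and 101 lower in all. Counts over all genes, 139 higher and 162 lower, were 93 and 264 with median scaling (26.1% of calls higher against 46.2%, the median of all genes moving from -0.01 to -0.13), 89 and 107 with no detection filter, 28 and 40 on slide 1 alone, 72 and 104 without an intensity trend, and 58 and 74 in a test against 1.2-fold. They were 59 to 107 higher and 84 to 119 lower with 1 array left out. The shift of Krt14 minus Krt5 was 1.59 to 3.74 and that of Krt18 minus Krt8 0.15 to 0.40, chosen for these alternatives after seeing the data. The cause of these differences was not tested. Signal over background limits Krt5 and the wild-type level of Krt14, and the 2 pools limit every p-value and interval.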
